A study of Mus musculus with 6 samples.

Results

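Expression of 9 genes of the Hedgehog pathway was examined in bulk RNA-seq of mouse neurofibroma tissue. They are the ligands *Dhh* and *Shh*, the receptor *Ptch1*, the signal transducer *Smo*, the decoy receptor *Hhip*, the transcription factors *Gli1*, *Gli2* and *Gli3*, and the inhibitor *Sufu*. They were found by symbol in the deposited counts, which hold all 9 among 24062 genes, and all 9 passed the filter on low counts that left 15652 genes. The libraries came from 6 mice on a C57BL/6-I129 background, 3 of genotype Nf1fl/fl;DhhCre and 3 that were floxed for *Runx1* and *Runx3* as well. The labels write the second genotype as Rx1flfl;Rx3fl/fl;DhhCre and call it a Runx1/Runx3 double knockout, and the extraction protocol and the paper add Nf1fl/fl to it. The tissue is labelled dorsal root ganglion (DRG) for the first genotype and neurofibroma tumor for the second, although the protocol names DRG/tumors for both. In its results the paper calls the first tissue tumors and the second DRG/tumors. By the protocol the mice thus share floxed *Nf1* and the Cre transgene, and differ in *Runx1* and *Runx3*. Tissue label and genotype cannot be told apart. Cre is driven by the *Dhh* promoter and deletes floxed genes in Schwann cells (SCs) and SC precursors. Cells outside that lineage keep them, and endoneurial fibroblasts can belong to it. The ages of these mice and any pooling of tumors are not given in the sources used here.

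Hedgehog ligands bind Patched receptors, which otherwise keep Smoothened (*Smo*) inactive. Active Smoothened, acting at the primary cilium, releases the Gli factors from Sufu, Gli2 acts mainly as activator and Gli3 mainly as repressor, and *Gli1*, *Ptch1* and *Hhip* are themselves transcribed in response. In peripheral nerve, Desert hedgehog (*Dhh*) is made by SCs and received by the mesenchymal cells that form the perineurium and by endoneurial fibroblasts, and its loss leaves the perineurium thin and disorganized.

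RefSeq promoter windows (GRCm38.p6) were at hand for 7 of the 9 genes, without *Shh* and *Gli1*. Each window covers 250 bases before and 50 after an annotated start. *Gli3* is shown because it was the gene called in the comparison of genotypes, and *Dhh* because its promoter drives Cre. The 250 bases before each start are printed 5′ to 3′ on the strand of the gene. The *Gli3* stretch is chr13:15463473-15463722 on the plus strand and lies within an intron of coding transcripts that begin further upstream, at 15463235 and 15463251. The *Dhh* stretch is chr15:98898541-98898790 on the minus strand. Capitals mark a RUNX hexamer (TGTGGT, searched on both strands), which stands in *Gli3* on the opposite strand, beginning 120 bases before the start.

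Gli3: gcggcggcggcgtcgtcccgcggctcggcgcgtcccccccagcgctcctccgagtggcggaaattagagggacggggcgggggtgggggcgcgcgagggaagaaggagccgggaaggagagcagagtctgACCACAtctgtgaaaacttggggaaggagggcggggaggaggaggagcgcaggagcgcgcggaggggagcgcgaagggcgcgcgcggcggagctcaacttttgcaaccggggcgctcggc

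Dhh: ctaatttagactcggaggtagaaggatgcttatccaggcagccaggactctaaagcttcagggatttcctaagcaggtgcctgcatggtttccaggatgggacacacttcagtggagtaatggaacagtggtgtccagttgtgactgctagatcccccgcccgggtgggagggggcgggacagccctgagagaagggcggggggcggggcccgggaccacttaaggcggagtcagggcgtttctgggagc

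Of the 7 windows, that of *Gli3* alone held the hexamer, which 16.8% of all 32851 windows of that table hold. The shorter TGTGG, contained in the hexamer, is found in 55.9% of all windows and stood in those of *Ptch1* (at 2 places), *Gli3* and *Sufu*. The Gli consensus TGGGTGGTC and its core GGGTGGTC, in 0.253% and 0.807% of all windows, were in none of the 7. These are matches of letters in short windows and not measured binding.

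The libraries held 12439296 to 16682194 counts, so that 3 counts amount to 0.179 to 0.247 CPM (counts scaled to a common library total). The floxed genes were examined first. *Runx1* was at 131, 141 and 172 CPM in Nf1fl/fl;DhhCre replicates 1 to 3 and at 84.0, 78.9 and 185 CPM in double knockout replicates 1 to 3, so that it was not reduced in the third. Cells that keep *Runx1* are part of bulk tissue, so these counts cannot test the label, and the group is named here by its label. *Runx3* was at 15.1 to 29.9 CPM and at 10.3 to 13.5 CPM. In marker lists for the cells that the tissue could hold, 15 of 16 sensory neuron genes and 9 of 12 genes of myelinating SCs were called higher in the libraries labelled double knockout (1 gene of the latter, *Gldn*, was called lower at -1.06), and 8 of 12 fibroblast genes and 8 of 10 measured macrophage genes were called lower. Of 8 perineurial genes, 2 were called lower. The libraries higher in sensory neuron genes are thus those whose tissue is labelled tumor, and not those labelled DRG. Skeletal muscle genes summed to 19049 CPM in Nf1fl/fl;DhhCre replicate 2 and to 48354 CPM in double knockout replicate 2, against 94.0 to 575 CPM in the other 4 libraries. The labels place double knockout replicate 3 in another sequencing run, and because titles and deposited columns disagree on mouse numbers within a genotype, the run could also belong to replicate 2. In bulk tissue, fewer cells of a type and less RNA per cell cannot be told apart.

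**Figure D1:**
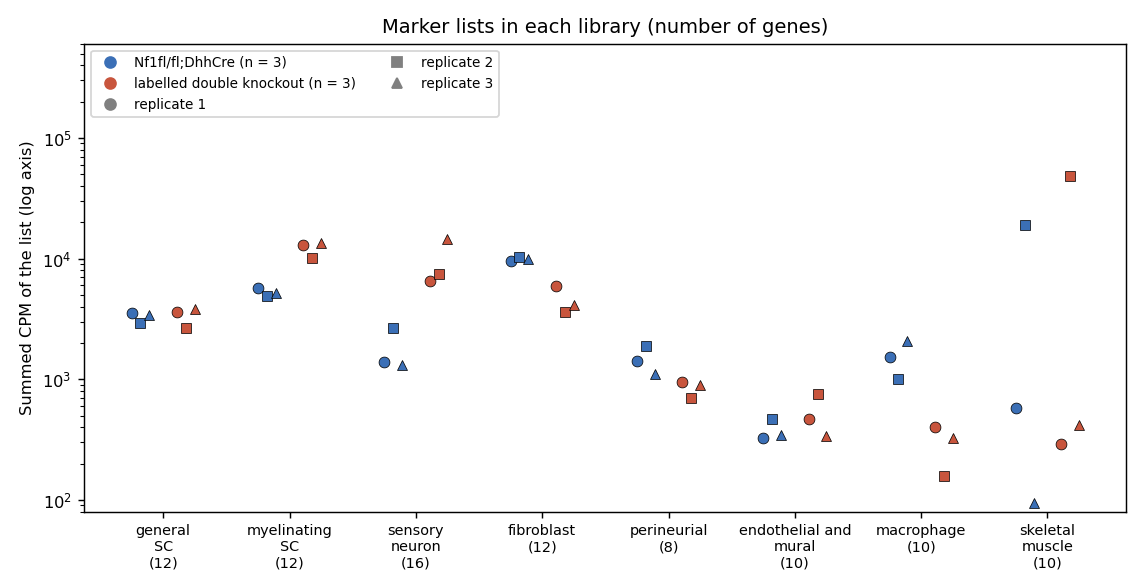
Summed CPM (log axis) of 8 lists of cell type markers in each of the 6 libraries, with the number of genes under each list. Fibroblast and macrophage sums were lower, and neuron and myelinating SC sums higher, in every library labelled double knockout than in any Nf1fl/fl;DhhCre library, and replicate 2 of each genotype stands out in muscle genes.

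Of the 9 Hedgehog genes, *Gli3* was the one that passed the test, and it fell in the libraries labelled double knockout. No gene was called higher. A call is an adjusted p below 0.05 in limma-voom, which 19.3% of all genes tested reached, 8.22% as lower and 11.1% as higher, so that 1 of 9 is no more than the share over all genes. A gene that also changed by more than 2-fold is a DEG (13.4% of all genes, 5.36% lower and 8.03% higher), and *Gli3* was one. Before adjustment, p was below 0.05 for 3 of the 9 (*Smo*, *Gli2* and *Gli3*) and for 35.2% of all genes. Of the 9 fitted log2 fold changes, 8 were below 0, with a median of -0.49, while 48.9% of all genes were below 0, with a median of 0.02. The 3 libraries of one genotype lay wholly below those of the other for 2 of the 9 genes (*Smo* and *Gli3*, both lower in the double knockout), and 20.5% of all genes showed such a gap in that direction.

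**Figure D2:**
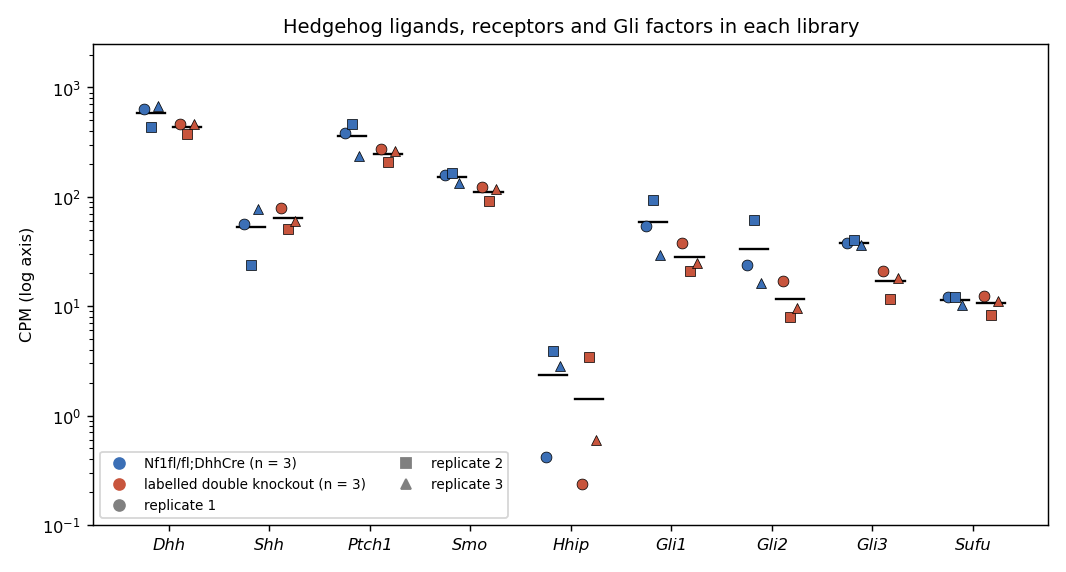
CPM (log axis) of the 9 Hedgehog genes in each library, with lines at the group means. The groups separate for *Smo* and *Gli3*, and for *Ptch1*, *Gli1* and *Gli2* the highest of the 6 values is Nf1fl/fl;DhhCre replicate 2.

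*Dhh*, the SC ligand, is a minus-strand gene at 98891152 to 98898540 of chromosome 15 (GRCm38, as for the other genes). It was at 638, 438 and 673 CPM in Nf1fl/fl;DhhCre replicates 1 to 3, and the libraries labelled double knockout had 461, 377 and 462 CPM, in the same order as for all genes here. Replicate 2 of the first genotype lay below 2 libraries of the other, and the ranges overlapped. Group means were 583 ± 127 CPM and 434 ± 48.6 CPM (SD, n = 3 each). The fitted log2 fold change, double knockout over Nf1fl/fl;DhhCre here and throughout, was -0.41 with an SE of 0.19 (95% interval -0.85 to 0.03, adjusted p = 0.169). Without Nf1fl/fl;DhhCre replicate 2, which is high in muscle genes, the change was -0.56 and passed the test (adjusted p = 0.0285), and without replicate 3 it was -0.25 (adjusted p = 0.416). Both genotypes carry the DhhCre transgene, and whether its transcripts could be counted on *Dhh* is not stated in the sources used here. Exons of *Dhh* also overlap those of *Rhebl1* on the same strand by up to 281 of 4399 bases and those of *Gm49442* on the other, and how shared reads were counted is not stated either.

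*Dhh* was also set against the other genes of its own cell type in each library. On the log2 scale it stood 2.31, 1.87 and 2.35 above the mean of 12 general SC markers in the Nf1fl/fl;DhhCre libraries. In the double knockout libraries as labelled it stood 1.58, 1.64 and 1.52 above that mean. The 2 sets did not overlap, and the difference of means was -0.60 (exact two-sided permutation test over libraries, p = 0.1, the smallest that 3 against 3 allow). The markers themselves were not level, since 3 of the 12 were called higher in the double knockout (*S100b*, *Ngfr* and *Fabp7*) and none lower, while their median log2 fold change was -0.08. With the median of the markers in place of the mean, the difference was -0.94.

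*Shh*, the ligand best known from the embryo and made in the adult by some sensory neurons among other cells, is on chromosome 5 from 28456815 to 28467256. It was at 56.7, 23.9 and 77.0 CPM in Nf1fl/fl;DhhCre mice, against 78.7, 51.2 and 60.5 CPM with the double knockout label. The values overlapped, and the lowest was that of Nf1fl/fl;DhhCre replicate 2. It changed by 0.42 on the log2 scale (SE 0.41, 95% interval -0.55 to 1.39, adjusted p = 0.508), and without that replicate it was -0.038. In the same comparison, 15 of 16 sensory neuron markers were called higher (median 2.33). Nf1fl/fl;DhhCre replicate 2, lowest in *Shh*, had the highest sum of these markers in its genotype (2676 CPM). With the double knockout label, *Shh* was highest in replicate 1, where that sum was lowest (6460 CPM). The part of the neurons in the level of *Shh* was not tested. *Shh* shares exon bases with the antisense transcripts *9530036O11Rik* and *Gm26894*, and the counting is not stated to use strand.

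*Ptch1*, the Patched receptor that is both gate and target of the pathway, spans 63508328 to 63573598 on the minus strand of chromosome 13. Its values were 382, 462 and 235 CPM for Nf1fl/fl;DhhCre, and 274, 207 and 261 CPM for the mice labelled double knockout. Nf1fl/fl;DhhCre replicate 3 fell within the range of the other genotype. The log2 fold change was -0.49 (SE 0.26, 95% interval -1.09 to 0.11, adjusted p = 0.214). It was -0.24 without Nf1fl/fl;DhhCre replicate 2 and -0.73 without replicate 3, where the adjusted p of 0.0518 came closest to the threshold. Without both libraries high in muscle genes, a choice made after seeing those genes, it was -0.15 (adjusted p = 0.745).

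*Smo*, the membrane protein downstream of Patched, occupies 29735503 to 29761365 of chromosome 6, plus strand. It was at 157, 165 and 134 CPM and, in the libraries labelled double knockout, at 124, 91.6 and 117 CPM. Every library of the first genotype was above every one of the second. Its log2 fold change of -0.46 (SE 0.16, 95% interval -0.83 to -0.09) missed the threshold after adjustment (adjusted p = 0.0826), and it passed in DESeq2 (adjusted p = 0.0465). Leaving out 1 library at a time gave -0.51 to -0.33, none of them a call, and without both libraries high in muscle genes it was -0.25 (adjusted p = 0.369).

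*Hhip*, a membrane protein that binds and sequesters the ligands and is itself a target of the pathway (chromosome 8, 79965851 to 80058006, minus strand), was close to the limit of detection. The counts were 6, 65 and 44 in the Nf1fl/fl;DhhCre libraries and 3, 42 and 9 in those labelled double knockout. Replicate 2 was the highest of each genotype, as it was in muscle genes, and the part of muscle in this was not tested. The log2 fold change of -1.12 (SE 1.18, 95% interval -3.89 to 1.65, adjusted p = 0.539) leaves both directions possible. It ranged from -2.06 without double knockout replicate 2 to -0.41 without double knockout replicate 1.

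*Gli3*, the Gli factor best known as a repressor in its processed form, occupies 15463235 to 15730026 of chromosome 13, plus strand, where *Gm6556* overlaps its exons on the other strand. It was at 37.9, 40.0 and 36.0 CPM in Nf1fl/fl;DhhCre mice, while those labelled double knockout had 20.9, 11.8 and 18.02 CPM. The first 3 values were close to each other and all above the second 3. The means were 37.96 ± 2.03 CPM and 16.9 ± 4.66 CPM (SD, n = 3 each), 2.25-fold apart. The log2 fold change was -1.20 (SE 0.22, 95% interval -1.71 to -0.69, adjusted p = 0.0149). Leaving out 1 library at a time gave -1.31 to -0.97, and the call held in 5 of the 6 fits, in 4 of them past 2-fold. The call was lost without Nf1fl/fl;DhhCre replicate 1 (-1.17, adjusted p = 0.0573), where 383 genes were called in all in place of 3017. Without double knockout replicate 3, the library whose *Runx1* was not reduced and whose label gives the other run, the change was -1.27 (adjusted p = 0.0326), and without replicate 2 it was -0.97 (adjusted p = 0.0382). Without both libraries high in muscle genes it was -0.92 (adjusted p = 0.0415), a call but under 2-fold. With the sensory neuron score as a covariate, the change was -1.38 and no longer passed (adjusted p = 0.389), in a fit that called 9 genes in all, where the score does not overlap between the genotypes.

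*Gli1*, the activator whose transcription is the usual readout of the pathway, is a minus-strand gene of chromosome 10 at 127329882 to 127341974. Its exons overlap those of *Arhgap9* and *Gm47200* on the other strand. It was at 53.8, 94.5 and 29.6 CPM in Nf1fl/fl;DhhCre mice, against 37.8, 21.1 and 25.02 CPM with the double knockout label. Double knockout replicate 1 was above Nf1fl/fl;DhhCre replicate 3, and the first genotype spread over more than the distance between the means, 59.3 ± 32.8 CPM and 28.0 ± 8.70 CPM (SD, n = 3 each). The log2 fold change was -0.98 (SE 0.44, 95% interval -2.02 to 0.06, adjusted p = 0.163). Without Nf1fl/fl;DhhCre replicate 2 it was -0.51 (adjusted p = 0.328), and with replicate 2 of both genotypes left out it was -0.37 (adjusted p = 0.544). DESeq2 gave -1.09 (adjusted p = 0.0395).

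*Gli2*, the main activator at the onset of a response, spans 118834132 to 119053619 on the minus strand of chromosome 1. It was at 23.9, 60.9 and 16.2 CPM in Nf1fl/fl;DhhCre mice, while those labelled double knockout had 17.1, 7.98 and 9.64 CPM. As with *Gli1*, replicate 2 was far above its own group and replicate 3 fell among the other genotype. The log2 fold change was -1.41 (SE 0.57, 95% interval -2.75 to -0.07, adjusted p = 0.127). Leaving out Nf1fl/fl;DhhCre replicate 2 gave -0.80 (adjusted p = 0.150). It moved in opposite directions with how the muscle libraries were treated, to -1.72 with the muscle score as a covariate (adjusted p = 0.0497) and to -0.63 with both libraries left out (adjusted p = 0.308). In DESeq2 it was -1.55 (adjusted p = 0.0125). The fitted change of *Gli2* was larger than that of *Gli3*, and its SE was wider (0.57 against 0.22).

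*Sufu*, which holds Gli factors in the cytoplasm, differed little. On chromosome 19 from 46396896 to 46488804, it was at 12.1, 12.03 and 10.2 CPM in Nf1fl/fl;DhhCre mice, against 12.5, 8.39 and 11.2 CPM with the double knockout label. The highest and the lowest of the 6 values were both in the second group. The fitted change was -0.11 on the log2 scale (SE 0.22, adjusted p = 0.769), and the 95% interval of -0.62 to 0.41 excludes a 2-fold change in either direction.

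**Figure D3:**
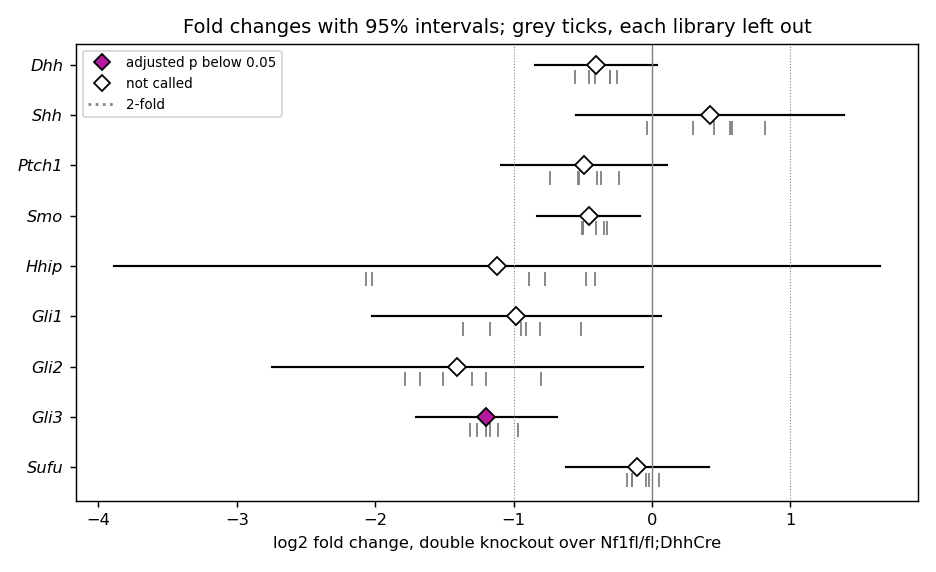
Log2 fold changes of the 9 genes (diamonds, filled where the adjusted p was below 0.05) with 95% intervals, and grey ticks for the value with each library left out in turn. *Gli3* at -1.20 is the one filled point, the interval of *Hhip* runs from -3.89 to 1.65, and the ticks of *Gli1* and *Gli2* reach -0.51 and -0.80.

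Levels were compared between genes only per length, as CPM per kilobase of exon (union of GENCODE M21 exons). In the Nf1fl/fl;DhhCre libraries *Dhh* led with 132 ± 28.8 CPM per kilobase (SD, n = 3), above every value of the other members. *Smo* (27.0 ± 2.92), *Ptch1* (25.4 ± 8.13), *Shh* (18.4 ± 9.41) and *Gli1* (11.9 ± 6.56) followed in CPM per kilobase, each overlapping its neighbor in this order, as did *Gli1* with *Gli2* (4.91 ± 3.48) and *Gli2* with *Gli3* (3.96 ± 0.211), whereas *Sufu* (1.49 ± 0.139) and *Hhip* (0.261 ± 0.195) were lowest and apart from their neighbors. In the libraries labelled double knockout *Dhh* was again first at 98.6 ± 11.1 CPM per kilobase. There *Shh* (22.3 ± 4.90), *Smo* (19.7 ± 3.06) and *Ptch1* (17.5 ± 2.51) overlapped, *Gli1* stood apart at 5.60 ± 1.74, and *Gli3* (1.76 ± 0.486), *Gli2* (1.68 ± 0.704) and *Sufu* (1.39 ± 0.273) overlapped in turn, with *Hhip* last at 0.157 ± 0.194. Compared within single libraries, *Shh* was above *Smo* and *Smo* above *Ptch1* in all 3 labelled double knockout. *Gli1* was above *Gli2* in all 3 Nf1fl/fl;DhhCre libraries. The other overlapping neighbors kept their order in 1 or 2 libraries of the genotype. The authors' gene models are not stated, and another exon length would rescale each gene.

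Markers of the cell types known to receive the ligand were lower in sum in the libraries labelled double knockout, with 9597 to 10232 CPM against 3638 to 5951 CPM for 12 fibroblast genes and 1111 to 1898 CPM against 697 to 957 CPM for 8 perineurial genes. *Pdgfra*, *Dcn* and *Lum* fell by 1.23, 1.21 and 1.66 on the log2 scale and, of the 8 perineurial genes, the tight junction gene *Cldn1* and the netrin *Ntn4* fell by 1.99 and 1.13. The remaining 6 perineurial genes were not called, with changes from -0.16 to 1.44, and the median of the 8 was -0.13. *Cldn1* alone had means of 719 and 179 CPM, so that the perineurial sum follows mainly this gene. No gene of either list was at 0 in any library. *Ptch1* and *Gli1* were also given relative to the mean log2 CPM of these 20 genes in the same library. *Ptch1* stood 2.23, 2.26 and 1.64 above that mean in the Nf1fl/fl;DhhCre libraries and 2.03, 2.34 and 2.42 above it in the others, a difference of 0.22 (exact permutation test, two-sided p = 0.5). *Gli1* differed by -0.26 (exact permutation p = 0.7), from -0.66 ± 0.66 to -0.92 ± 0.073 (SD, n = 3 each), with 0.057 without Nf1fl/fl;DhhCre replicate 2 and -0.60 without replicate 3. For *Ptch1*, leaving out 1 library gave 0.020 (without Nf1fl/fl;DhhCre replicate 3) to 0.34 (without double knockout replicate 1). Neither relative level differed beyond the spread of the libraries. *Gli1* relative to *Ptch1* was at -2.83, -2.29 and -2.99 and at -2.86, -3.29 and -3.38, which overlapped (difference -0.48, exact permutation p = 0.2, with -0.27 without Nf1fl/fl;DhhCre replicate 2 and -0.64 without double knockout replicate 1).

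*Gli2*, *Gli3* and *Smo* were set against the same 20 markers after their values had been seen. *Gli3* was at -1.11, -1.27 and -1.07 in the Nf1fl/fl;DhhCre libraries and at -1.69, -1.80 and -1.43 in those labelled double knockout, without overlap. The difference of -0.49 (exact two-sided permutation p = 0.1, the smallest possible) was under the -1.20 of *Gli3* itself, and leaving out 1 library at a time kept it between -0.59 and -0.41. *Gli2* differed by -0.67 (exact permutation p = 0.2), with -0.23 without Nf1fl/fl;DhhCre replicate 2 and -1.01 without replicate 3. *Smo* differed by 0.26 (exact permutation p = 0.2), with 0.18 to 0.36 when 1 library was left out. Both overlapped between the genotypes.

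**Figure D4:**
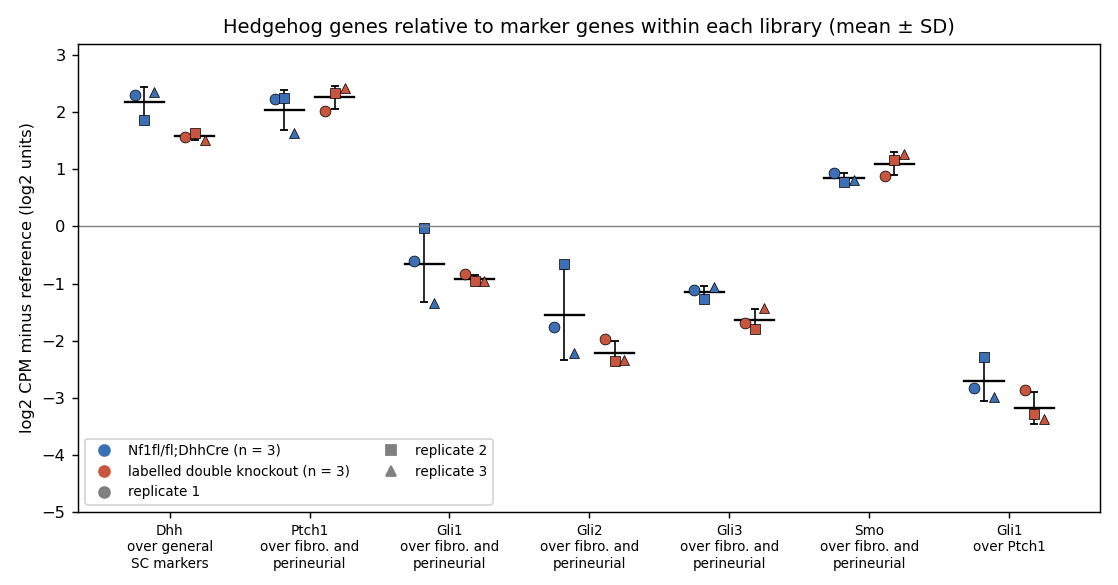
Log2 CPM of each gene minus its reference in the same library (general SC markers for *Dhh*, the 20 fibroblast and perineurial markers for the next 5 genes, *Ptch1* for the last), with the mean ± SD of 3 libraries. *Dhh* and *Gli3* do not overlap between genotypes, and the other 5 comparisons do.

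The rest of the pathway was described by lists of 42 further genes, each counted once, of which 39 were tested. They were divided, with 4 called higher and 4 called lower in the libraries labelled double knockout, against 11.1% and 8.22% of all genes. Their median log2 fold change was -0.21. Of the 39, 14 were lower without overlap between genotypes and 5 higher, where 20.5% and 21.8% of all genes were. Not tested were *Ihh*, the other Hedgehog ligand, listed at 0 counts in 5 of 6 libraries, the endocytic co-receptor *Lrp2*, at 0.060 to 1.19 CPM, and the mesenchymal target *Foxf2*, at 0.641 to 3.04 CPM in the Nf1fl/fl;DhhCre libraries and at most 0.478 CPM in the others.

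Among 5 tested genes that modify or release the ligand, *Disp1*, the transporter that lets lipid-bearing ligand leave the cell, rose from a mean of 33.1 ± 3.94 to one of 57.1 ± 5.80 CPM (SD, n = 3 each). Its 3 values of 54.8, 52.8 and 63.7 CPM with the double knockout label were all above 37.3, 29.5 and 32.6 CPM, a change of 0.79 in log2 (SE 0.15, adjusted p = 0.0175). The call was lost without Nf1fl/fl;DhhCre replicate 1 (adjusted p = 0.0507). *Hhat*, the acyltransferase that adds palmitate to the ligand, was at 9.57, 8.46 and 5.26 CPM against 2.79, 4.03 and 3.56 CPM, again without overlap but short of the threshold (-1.12, SE 0.35, adjusted p = 0.0651).

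Of 5 tested receptors and co-receptors, the glypican *Gpc3*, which competes with Patched for the ligand, fell from 228 ± 29.2 CPM to 125 ± 22.2 CPM (log2 fold change -0.88, SE 0.17, adjusted p = 0.0169), a call kept in 3 of the 6 fits that left out 1 library. It was lost without Nf1fl/fl;DhhCre replicates 1 or 3 or double knockout replicate 2 (highest adjusted p = 0.0739). The ligand co-receptors *Cdon*, *Boc* and *Gas1* had changes of 0.42, 0.25 and -0.48 with adjusted p from 0.305 to 0.652.

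All 21 genes of the steps between Smoothened and the Gli factors were tested, 3 were called higher and 1 lower, and their median log2 fold change was -0.03. *Kif3a*, a subunit of the kinesin that builds cilia and also carries cargo in axons, rose from 110 ± 1.94 CPM to 290 ± 67.8 CPM (1.38, SE 0.17, adjusted p = 0.00847) and was called in each fit that left out 1 library. *Prkaca* and *Gsk3b*, kinases that mark Gli proteins for processing and act in many other pathways, changed by 0.92 (SE 0.17, adjusted p = 0.0154) and 0.57 (SE 0.16, adjusted p = 0.0432). The call of *Gsk3b* was lost in edgeR's quasi-likelihood test (adjusted p = 0.0510), with library size only (0.0555), with the muscle score as a covariate (0.0607) and without both libraries high in muscle genes (0.112), and it held in 1 of the 6 fits that left out a library, without double knockout replicate 1, and that of *Prkaca* in 4, lost without Nf1fl/fl;DhhCre replicates 1 or 3. These 3 genes and *Disp1* shared with the 16 sensory neuron markers the difference between genotypes, the sum of the markers being 1301 to 2676 CPM and 6460 to 14574 CPM. Within the double knockout label, the neuron sum was highest in replicate 3, as were *Kif3a* (368 CPM), *Gsk3b* (1393 CPM) and *Disp1* (63.7 CPM). *Prkaca* was highest in replicate 2 (148 CPM). Among the Nf1fl/fl;DhhCre libraries the neuron sum was highest in replicate 2, where *Disp1* was lowest (29.5 CPM, against 37.3 and 32.6 CPM). In replicates 1 to 3 of that genotype *Kif3a* was at 109, 112 and 108 CPM and *Gsk3b* at 783, 790 and 750 CPM. *Prkaca* was at 58.1, 67.7 and 67.0 CPM in the same libraries. The part of neurons in the levels of these genes was not tested. With the neuron score as a covariate, *Kif3a*, *Prkaca* and *Gsk3b* changed by 0.78, 0.74 and 0.055, in a fit that cannot separate the score from the genotype, so that nothing is read from the loss of their calls. *Arrb2*, an arrestin that takes part in Smoothened transport and is abundant in leukocytes, fell from 37.5 ± 9.19 CPM to 16.2 ± 4.62 CPM (-1.20, SE 0.27, adjusted p = 0.0245). The 10 measured macrophage genes summed to 999 to 2074 CPM and 157 to 399 CPM, and their part in the fall of *Arrb2* was not tested. It was called in 2 of the 6 fits that left out 1 library, those without Nf1fl/fl;DhhCre replicate 2 or double knockout replicate 3, and was lost without both libraries high in muscle genes (adjusted p = 0.0597). The cilium genes *Ift88* (23.3 ± 4.51 and 23.0 ± 2.27 CPM) and *Inpp5e* (39.0 ± 1.88 and 39.0 ± 6.29 CPM) overlapped, and *Arl13b*, a small GTPase of the cilium, was lower without overlap (-0.51, SE 0.16, adjusted p = 0.0667).

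Among 9 tested target genes, the cyclins *Ccnd1* and *Ccnd2*, which many growth signals induce, were the 2 called, with changes of -1.91 (SE 0.28, adjusted p = 0.0103) and -1.44 (SE 0.35, adjusted p = 0.0316). The paper names *Ccnd1* among highly plausible direct targets of RUNX1/3, from binding, chromatin and expression data. The call of *Ccnd1* was lost without Nf1fl/fl;DhhCre replicate 1 (adjusted p = 0.05003), and that of *Ccnd2* held without Nf1fl/fl;DhhCre replicate 2 or double knockout replicate 1 and was lost in the other 4 fits (highest adjusted p = 0.110). Of the rest, 6 were below 0 and *Mycn* was above, and the median of the 9 was -0.86. *Snai1*, a factor of mesenchymal transition, had the lowest fitted value of the 9 at -2.83 (SE 0.95, adjusted p = 0.0777), from low levels of 3.26, 6.85 and 1.73 CPM against 0.877, 0.576 and 0.198 CPM. *Foxl1*, a mesenchymal factor downstream of Gli, was at 4.30, 7.69 and 3.78 CPM and at 3.03, 1.97 and 3.37 CPM, which did not overlap but did not pass (-0.86, SE 0.42, adjusted p = 0.186).

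**Figure D5:**
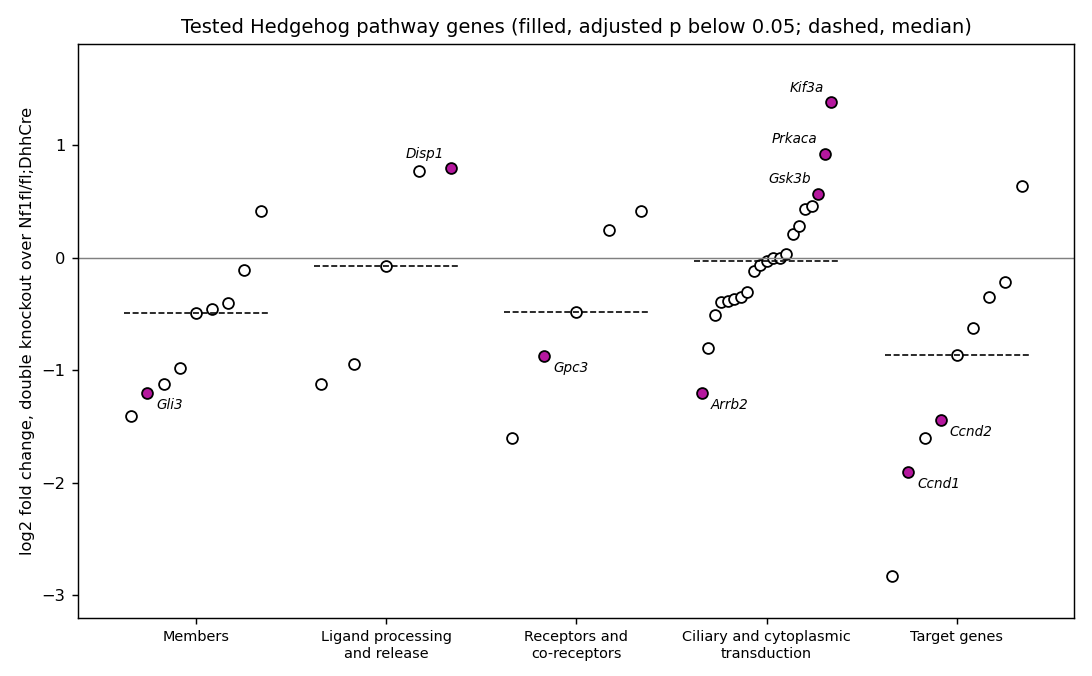
Log2 fold changes of the 9 Hedgehog genes and of the tested genes of 4 further pathway lists, each point a gene, filled and named where the adjusted p was below 0.05, with dashed lines at the medians. Calls in both directions occur among the transduction genes, and the 2 called target genes are *Ccnd1* and *Ccnd2*.

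Genes with the pattern most like that of *Dhh* and *Gli1* were found by the Pearson correlation of log2 CPM over the 6 libraries, among 9807 genes whose log2 CPM averaged 3 or more. With 6 points that share a genotype split and so many candidates, high values are certain to occur, and they are given as a description. Among the 5 nearest to *Dhh* were *Micall2*, *Hbegf*, *Pi15* and *Fam49b*, with r from 0.988 to 0.994. *Hbegf*, for example, was at 70.7, 37.3 and 73.7 CPM in Nf1fl/fl;DhhCre mice, against 35.6, 25.9 and 35.0 CPM, so that replicate 2 was the lowest of each genotype, as for *Dhh*. The 5 nearest to *Gli1* were *Irak3*, *Phf2*, *Hpgd*, *Ildr2* and *Ranbp3l*, with r from 0.994 to 0.998. *Ildr2* was at 198, 287 and 115 CPM and at 131, 78.3 and 92.5 CPM, with the peak of *Gli1* in Nf1fl/fl;DhhCre replicate 2.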

How the data were processed

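The authors amplified RNA with the NuGEN Ovation system, aligned reads to mm10 with TopHat and counted them per gene with featureCounts. The deposited values are raw counts per symbol, and annotation, strand and multi-mapped reads are not stated. From these counts, low genes were removed by filterByExpr, set to a count of 10 and a total of 15. The rest were scaled by TMM (factors 0.950 to 1.04) and fitted with limma-voom on genotype alone, following the methods of the study (R 4.3.3, edgeR 4.0.16, limma 3.58.1). P-values were adjusted by Benjamini and Hochberg over all genes tested. CPM used TMM-scaled totals, and relative values a prior count of 0.5. Libraries of a genotype differed from each other by a chi-square of at least 22.5 per degree of freedom, so none was a copy. The labels number the mice but do not describe whether tumors were pooled, so p-values measure the spread between these libraries. The members, the lists and the rule for named genes (all 9, every called gene of the lists, and the 5 genes most like *Dhh* and *Gli1*) were chosen with earlier results of these data known. Some genes that the rule names are not reported here. Also tried were DESeq2 1.42.0, its size factors in voom, the quasi-likelihood test of edgeR, library size only, 2 other filters, quality weights, unadjusted p, 2 covariates and leaving out each library. The limma-voom and quasi-likelihood fits were tested on simulated data. Positions and exon lengths are from GENCODE M21 (GRCm38), and figures were drawn with matplotlib 3.10.9.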

Additional observations from a re-analysis of the deposited data

How the results depend on the processing

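No paired analysis was possible because the mouse numbers in the labels are not shared between genotypes, and the replicate numbers used here only name the libraries of a genotype in order of deposit. In the limma-voom fit, 1 Hedgehog gene, 8 other pathway genes and 3017 genes in all were called, and 2096 were DEGs. DESeq2 called 4 Hedgehog genes, 13 other pathway genes and 4574 genes, and an unadjusted p below 0.05 gave 3, 16 and 5513. The muscle score as a covariate gave 2 Hedgehog genes. The sensory neuron score as a covariate gave 0, 0 and 9 genes, with 9 DEGs, and *Dhh* turned to 0.16, *Runx3* to 0.22 and *Ccnd2* to 0.057. That score does not overlap between the genotypes, so the fit cannot separate them. Leaving out 1 library at a time gave 0 to 2 Hedgehog genes, 1 to 8 other pathway genes, 383 to 3006 genes in all and 362 to 2285 DEGs, each lowest without Nf1fl/fl;DhhCre replicate 1. In the same fits *Shh* ranged from -0.038 to 0.82, *Sufu* from -0.18 to 0.050 and *Nf1* from -0.18 to 0.043 in log2 fold change. Without both libraries high in muscle genes, an alternative added after seeing the data, *Sufu* was 0.10. *Dhh* relative to the median of the SC markers was -0.94. For the values moved by DESeq2, the muscle score or a left-out library, the cause was not tested. Beside these fits, *Gli3* lost its call with the neuron score and kept it under the other 10 alternatives, past 2-fold in 9 of them. With 3 libraries a genotype, leaving out a single one moved the log2 fold change of each Hedgehog gene but *Smo* and *Gli3* by over 1.5 times.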

Other observations

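Over the 6 libraries, log2 CPM of *Gli1* and *Gli2* correlated at r = 0.98 (Pearson), *Gli1* and *Ptch1* at 0.97, and *Smo* and *Gli3* at 0.95, while *Dhh* and *Ptch1* were at 0.15. The libraries share the genotype split and 2 of them share muscle transcripts, and the values are a description only. *Ptch1* relative to *Dhh* within a library, set up after its values had been seen, was at -0.74, 0.08 and -1.52 on the log2 CPM scale in the Nf1fl/fl;DhhCre libraries and at -0.75, -0.86 and -0.82 in those labelled double knockout. The means were -0.73 ± 0.80 and -0.81 ± 0.059 (SD, n = 3 each). Their difference of -0.086 became 0.32 without Nf1fl/fl;DhhCre replicate 2 and -0.48 without replicate 3.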
